A study of Arabidopsis thaliana with 15 samples.

Results

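FAMA is a basic helix-loop-helix (bHLH) transcription factor of Arabidopsis thaliana that acts at the end of stomatal development, when a guard mother cell divides once and its daughters become the guard cells around a pore. A factor of this kind binds DNA as a dimer, and transcripts near its binding sites can respond within hours, whereas transcripts that depend on a second factor or on a new cell state appear later. The comparison described here asked, for every transcript on the array, whether its response to FAMA differed between 4 h and 48 h after induction. It covers 12 of the 15 arrays of the series and 22746 of the 22810 probe sets, the other 64 being control probe sets of the manufacturer.

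The 12 arrays were 4 groups of 3, from whole seedlings of ecotype Columbia on vertical MS plates with sucrose. The control 4 h and control 48 h groups had been moved on day 5 to new plates with no estrogen, and the FAMA 4 h and FAMA 48 h groups to plates with 10 µM estrogen, which induced FAMA. By their labels the 4 h seedlings had an age of 5 days and the 48 h seedlings of 7 days. The 3 other arrays held FAMA-EAR, FAMA fused to a repression domain, after 48 h on 10 µM estrogen, and their values are quoted beside some genes. The driver of the inducible construct and the number of independent lines were not named in the labels. The labels do not say whether the 3 arrays of a group came from separate cultures, so the p-values rest on the spread between arrays, and part or all of that spread may be technical. Estrogen and the induced protein cannot be told apart in a comparison with the controls, and seedling age and time since induction cannot be told apart between the times.

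Values are MAS5 signals, a linear brightness for each probe set, and all differences below are on the scale of log2(signal + 20), which understates the change of dim transcripts. The FAMA effect is FAMA minus control at 1 time. The difference of the effect is the effect at 48 h minus the effect at 4 h, so a positive value means that FAMA seedlings stood higher against their controls at 48 h than at 4 h. Effects and differences are printed relative to the median over all probe sets, which was 0.09 for the 4 h effect, -0.02 for the 48 h effect and -0.14 for the difference before this subtraction. The tests concern the differences before it. A value is called where its adjusted p from the limma fit was below 0.05, and the words rose and fell are kept for called values.

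The third FAMA 4 h array stood apart from the rest. Its median signal was 239 and its lower quartile 79.1, against medians of 188.2 to 199 and lower quartiles of 39.6 to 48 on the 14 other arrays. Its mean rank correlation with the arrays of its group was 0.929, against 0.953 to 0.985 elsewhere. Dim probe sets were therefore read higher on it, and many results below, though not all, are given with and without it. Leaving it out moved the median difference from -0.14 to -0.03. The FAMA 48 h arrays also stood apart, in the log2 ratio of 3' to 5' signal of the actin control probe sets, a reading of RNA integrity. It was 0.52, 0.51 and 0.58 on them and 0.75 to 1.16 on all other arrays. The same ratio of GAPDH overlapped between them and the others. The part of this in the 48 h effects was not tested.

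FAMA itself was read first. Its signal was 255.7, 251.7 and 230.3 on the control 4 h arrays and 12831, 12604 and 11696 on the FAMA 4 h arrays. At 48 h the control arrays read 255, 245.9 and 229.6 and the FAMA arrays 18576, 16934 and 18563. Every FAMA array thus lay far above every control array at both times, and the 48 h arrays lay above the 4 h arrays. The effect was 5.45 at 4 h and 6.12 at 48 h, a difference of 0.69 (SE 0.12, adjusted p = 0.0038). On the FAMA-EAR 48 h arrays the FAMA probe set read lower, at 3456.5, 2726 and 2998.5. FAMA minus FAMA-EAR at 48 h was 2.56 (adjusted p = 2.1e-14), so the values of FAMA and FAMA-EAR below are not set side by side at a like transcript level. The labelled tissue matched its markers, since the leaf transcripts LHCB4.1 and RCA and the root transcript PYK10 were bright on all arrays.

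The response differed between the times for 3103 of 22746 probe sets, or 13.6%, of which 1500 (6.59%) stood higher at 48 h than at 4 h and 1603 (7.05%) lower. A fit that left out the third FAMA 4 h array called 3467, of which 1663 (7.31%) were higher and 1804 (7.93%) lower. Of the 3103, 2790 were called with the same sign in both fits, which is 89.9%, while 313 were lost and 677 were gained. With array medians made equal the split was 1444 higher (6.35%) and 964 lower (4.24%). After quantile normalization it was 1471 higher and 1549 lower. With equal medians and the third FAMA 4 h array left out it was 1557 and 1885. The balance of the directions thus moved toward higher with equal medians while that array was kept, and not under these other settings. The difference was at least 2-fold for 967 of the called probe sets and at least 4-fold for 156. At 4 h the FAMA effect was called for 664 probe sets (2.92%), 261 higher (1.15%) and 403 lower (1.77%), and for 599 without the third FAMA 4 h array. This count was not stable. It was 342 without the third control 4 h array, 1077 without the second FAMA 4 h array and 303 without the variance trend. At 48 h, with all arrays, the FAMA effect was called for 4913 (21.6%), 2409 higher (10.6%) and 2504 lower (11%). FAMA and FAMA-EAR at 48 h differed for 5168 (22.7%), with 2522 (11.1%) higher under FAMA and 2646 (11.6%) lower.

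Most differences were responses called late and not early. Of the 3103 probe sets, 1214 had an effect that was higher than control and called at 48 h alone, and 1214 had one that was lower and called at 48 h alone. A rise called at 4 h was no longer called at 48 h for 72 probe sets, and a fall called at 4 h was no longer called for 92. The effect changed sign, with a call at both times, for 71 probe sets that rose and then fell and for 33 that fell and then rose. It grew in the same direction for 18 risers and 25 fallers, shrank for 1 faller, and neither effect was called for 363. The early and reversing groups were small and moved with single arrays. When each of the 12 arrays was left out in turn, the 72 lay between 34 (without the third control 4 h array) and 161 (without the second FAMA 4 h array). The 92 lay between 49 (without the second or the third control 4 h array) and 134, the 71 between 36 (without the second control 4 h array) and 90, and the 33 between 16 (without the third control 4 h array) and 52, each highest without the second FAMA 4 h array. The 2 late groups lay between 953 and 1355 for rises and between 980 and 1459 for falls. With equal array medians the 71 became 28, the early rises 28 and the late falls 782, against 1093 late rises. After quantile normalization these counts were 76, 66, 1211 and 1178. With equal medians and the third FAMA 4 h array left out they were 76, 60, 1547 and 1264.

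**Figure D1:**
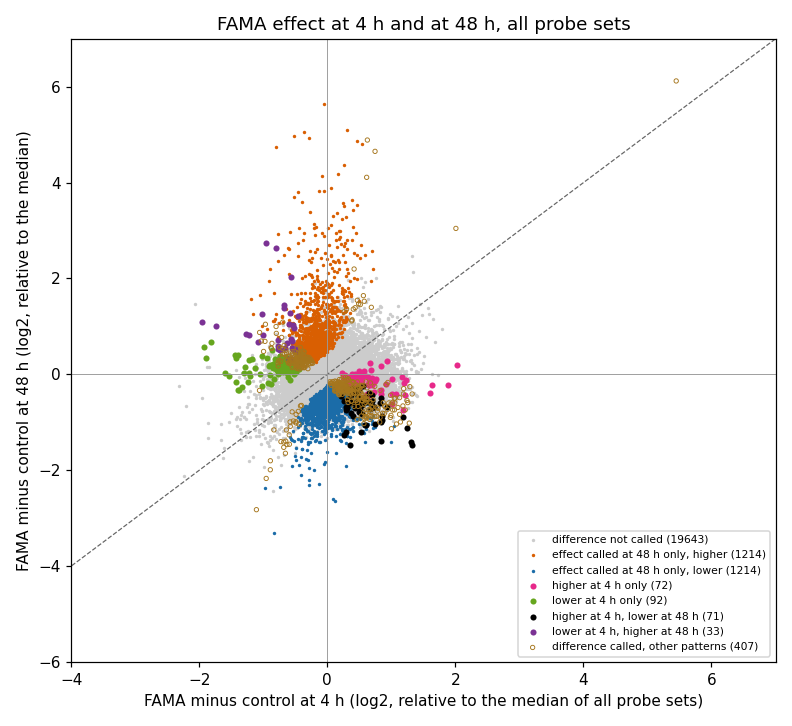
Each point is 1 of 22746 probe sets, with the FAMA effect at 4 h on the x axis and at 48 h on the y axis, both in log2 units relative to the median of all probe sets; colours give the pattern of calls and the dashed line marks equal effects. The 1214 late rises and 1214 late falls form a vertical band around an effect of 0 at 4 h, and FAMA itself is the point at the upper right, at 5.45 and 6.12.

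The largest differences belonged to transcripts that were dim or without a large effect at 4 h and bright at 48 h. Of the 12 highest, 10 had an effect called at 48 h and not at 4 h, and 2 (EXPA16 and AT3G57600) rose at both times. On every one of the 12 the FAMA 48 h arrays lay above all control 48 h arrays and above all FAMA-EAR 48 h arrays. The 12 were chosen by differences that the same FAMA 48 h arrays make high. This separation therefore follows largely from the choice and is not separate evidence. The roles given here for genes without a symbol are the families that general annotation gives them.

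AT2G34810, a berberine bridge enzyme-like oxidoreductase, had signals of 321.7, 325.5 and 354.8 on the control 4 h arrays and 457.7, 401.1 and 492.2 on the FAMA 4 h arrays. At 48 h it read 196.5, 193.9 and 179.8 on the control arrays and 6220.4, 7081 and 7904 on the FAMA arrays. The groups did not overlap at either time, but the 4 h gap was slight and its effect of 0.31 was not called (adjusted p = 0.069). The difference of 4.80 (SE 0.17, adjusted p = 2.4e-13) corresponds to 25.4-fold.

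EXPA16, an alpha-expansin, one of the proteins that loosen plant cell walls, was already higher at 4 h, with 375.8, 542.4 and 494.2 on the control arrays against 883.5, 721.7 and 742.4 on the FAMA arrays. By 48 h the control arrays had dropped to 138.3, 194.2 and 171.2 and the FAMA arrays read 5500.3, 5253 and 5486. All FAMA arrays were above all control arrays at both times, with an effect of 0.63 at 4 h and 4.89 at 48 h. The difference was 4.28 (SE 0.21, adjusted p = 2.4e-11). The FAMA-EAR arrays read 52, 73.2 and 75.4, below the 48 h controls.

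AT3G57600, an AP2/ERF-type transcription factor, read 95.1, 88.8 and 63.6 on the control 4 h arrays and 183.1, 92.2 and 242.8 on the FAMA 4 h arrays, which overlapped. At 48 h it read 125.8, 141.9 and 125.3 on the control arrays and 3589, 3733 and 3809.6 on the FAMA arrays, with no overlap. Its difference was 3.93 (SE 0.32, adjusted p = 5e-08), and 4.09 without the third FAMA 4 h array. The 4 h effect of 0.74 was called narrowly (adjusted p = 0.044), and that array read highest of the FAMA 4 h arrays.

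AT4G36700, a cupin-family protein, showed the highest difference, 5.57 (SE 0.84, adjusted p = 0.00012), with the widest error of the 12. Its signal was 266.1, 3.5 and 18.8 on the control 4 h arrays and 3, 16.5 and 52 on the FAMA 4 h arrays, so 1 control array lay above all the others. At 48 h it was 14.3, 36.5 and 26.7 on the control arrays and 1485, 1022 and 1057 on the FAMA arrays. Before the median was subtracted the difference was 5.43, and it was 4.35 without the first control 4 h array and 6.15 without the second.

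AT5G66440 showed a small spread in all groups. It read 387.7, 405.1 and 378.5 on the control 4 h arrays, 376.9, 407.5 and 428.9 on the FAMA 4 h arrays and 349.5, 362.6 and 378.7 on the control 48 h arrays. Only the FAMA 48 h arrays, at 5348, 5002 and 5664, departed from that level, for a difference of 3.89 (SE 0.14, adjusted p = 3.7e-13).

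TET4, AT4G29570 and AT3G58000 were of the same form. TET4, a tetraspanin of the plasma membrane, read 27.6 to 85 on the 9 arrays of the other 3 groups and 1030.1, 1056 and 1225 at FAMA 48 h (difference 3.85, SE 0.40, adjusted p = 1.8e-06). AT4G29570, a cytidine deaminase, read 2 to 72.3 on those 9 arrays and 696.8, 741.7 and 1056 at FAMA 48 h (difference 4.44, SE 0.55, adjusted p = 1.5e-05). AT3G58000, a VQ-motif protein, read 40 to 93.6 and then 1663, 1477 and 1869 (difference 4.03, SE 0.31, adjusted p = 2.7e-08). Signals this low lie in the range where the third FAMA 4 h array read higher than the rest, so a small early response of these genes could not be read. Without that array the 12 highest differences lay between 3.15 and 5.90.

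AT3G02480, a late embryogenesis abundant (LEA) protein of the kind made in drying seeds, behaved differently in the controls. It fell there from 362.1, 461.3 and 525.4 at 4 h to 136.1, 90.6 and 91.5 at 48 h, while the FAMA arrays rose from 402.3, 214.3 and 230.1 to 935.5, 888.3 and 921.7. Its difference of 3.72 (SE 0.31, adjusted p = 1.1e-07) therefore sums a called rise of 1.68 in the FAMA arrays and a called fall of -1.90 in the controls, neither relative to the median. AT2G04460 (difference 4.25, SE 0.30, adjusted p = 9.9e-09), AT2G15830 (difference 4.23, SE 0.27, adjusted p = 2.2e-09) and AT2G47780, a small rubber particle protein-family member (difference 3.53, SE 0.42, adjusted p = 8.7e-06), completed the 12.

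**Figure D2:**
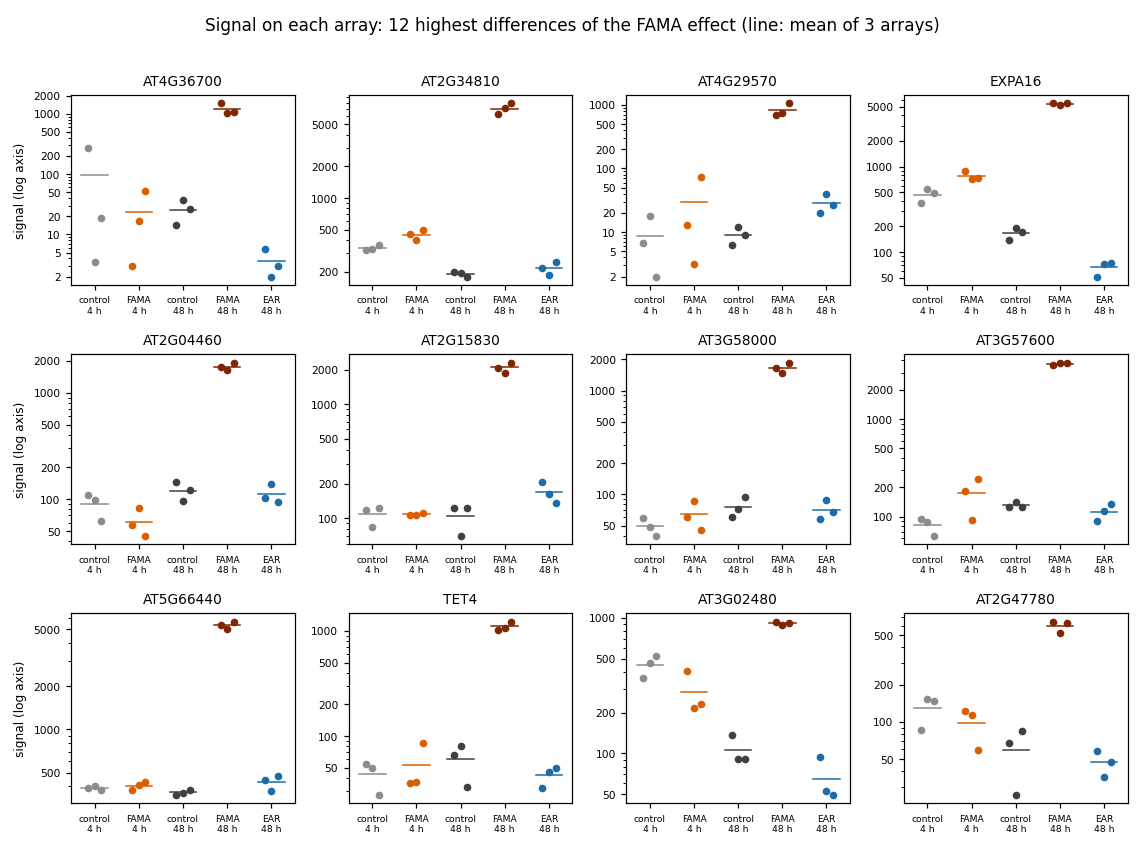
Signal on each array (log axis) for the 12 genes with the highest difference of the FAMA effect, in control 4 h, FAMA 4 h, control 48 h, FAMA 48 h and FAMA-EAR (EAR) 48 h; points are arrays and lines are means of 3. In all 12 the FAMA 48 h points stand above every other 48 h point, which follows largely from how the 12 were chosen. EXPA16 and AT2G34810 are the genes whose FAMA 4 h points are all above the control 4 h points.

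The 12 lowest differences were smaller in size, from -1.59 to -2.77, and 8 of them had a called rise at 4 h. AT1G70820, annotated as a phosphoglucomutase-family protein, was the lowest and also the largest reversal. Its signal at 4 h was 958.5, 677.7 and 972.4 on the control arrays and 2790.5, 2238 and 1999 on the FAMA arrays. At 48 h it was 1031, 1205 and 1036 on the control arrays and 400.1, 330.4 and 387.9 on the FAMA arrays. The FAMA arrays were thus all above control at 4 h and all below it at 48 h, with effects of 1.32 (adjusted p = 4.4e-06) and -1.48 (adjusted p = 4.8e-08). The difference was -2.77 (SE 0.19, adjusted p = 1.9e-09), and -2.99 without the third FAMA 4 h array.

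AT1G66100, a thionin, one of the small cysteine-rich defence peptides of plants, followed the same course. It read 2366, 1978 and 2129 against 5120.1, 3626 and 3739 (control and FAMA) at 4 h, and 3162, 2854 and 2219 against 1152, 832.3 and 1049 at 48 h. The FAMA arrays lay wholly above and then wholly below the controls (difference -2.21, SE 0.20, adjusted p = 5.6e-08). A second thionin, THI2.2, did so too, with 1279, 1118 and 1176 against 3146, 2361 and 1642 at 4 h and 1113, 1174 and 1027 against 482.4, 568.9 and 732.5 at 48 h (difference -1.69, SE 0.23, adjusted p = 1.3e-05).

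AT5G62360, a pectin methylesterase inhibitor-type protein, read 538.1, 444.4 and 324.7 on the control arrays and 1559, 802.9 and 950.9 on the FAMA arrays at 4 h. At 48 h the control arrays read 296.4, 342.3 and 292.3 and the FAMA arrays 152.5, 161.2 and 150.7 (difference -2.05, SE 0.28, adjusted p = 1.2e-05). AT3G62550, a universal stress protein-like gene, went from an effect of 0.83 at 4 h to -0.99 at 48 h (difference -1.80, SE 0.26, adjusted p = 2e-05). For both, the FAMA-EAR arrays at 48 h lay above all controls of that time, with 603.3, 868.3 and 671 for AT5G62360 and 4051, 4143 and 3649.7 for AT3G62550, so FAMA and FAMA-EAR lay on opposite sides of the controls (FAMA-EAR minus control 1.14, adjusted p = 0.0016, and 1.10, adjusted p = 0.00095). The same held for AT1G70820 (0.79, adjusted p = 0.0016) and THI2.2 (0.69, adjusted p = 0.023). FAMA-EAR minus control was not called for the other reversing genes among the 12 lowest.

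CCB3, a factor for assembly of the chloroplast cytochrome b6f complex, and AT4G32340, a tetratricopeptide repeat protein, also rose and then fell. CCB3 read 376.7, 310.7 and 309.3 against 597.9, 481.4 and 563.7 at 4 h and 433.1, 340.8 and 576.2 against 182, 184.1 and 226.5 at 48 h, with overlap at neither time (difference -1.64, SE 0.25, adjusted p = 5.1e-05). The other late falls among the 12 had no called rise at 4 h. AT4G28940, a nucleoside phosphorylase-family protein, read 486.3, 615.8 and 519.5 on the control 48 h arrays and 112.7, 94.7 and 149.1 on the FAMA 48 h arrays (difference -1.77, SE 0.21, adjusted p = 1.6e-06). AT1G64590, a short-chain dehydrogenase, read 361.6, 296.6 and 328.4 and 74.3, 86.1 and 70.4 at that time (difference -1.76, SE 0.23, adjusted p = 6.2e-06), and its effect at 4 h was -0.04.

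Of the named genes that fell and then rose, the 4 with the largest difference were PMEPCRF, AT1G30870, AT4G26010 and AT1G33811. PMEPCRF, a pectin methylesterase, which removes methyl groups from wall pectin, read 829.9, 865.8 and 887.1 on the control arrays and 577, 566.8 and 426.6 on the FAMA arrays at 4 h. At 48 h the control arrays read 863.1, 967.5 and 948.5 and the FAMA arrays 5679, 5145 and 6541. All FAMA arrays were below control at 4 h and above it at 48 h, with effects of -0.80 and 2.64 (difference 3.46, SE 0.16, adjusted p = 2.4e-11).

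AT1G30870, a class III peroxidase, one of the secreted peroxidases that act on wall polymers, read 384, 214.1 and 227.9 against 90.8, 52 and 41.1 at 4 h and 345.9, 255.6 and 252.3 against 795.8, 613.6 and 473.4 at 48 h (difference 3.07, SE 0.33, adjusted p = 2.7e-06). A second peroxidase, AT4G26010, read 367.8, 237 and 251.2 against 67, 66 and 99.6 at 4 h and 351.6, 249.4 and 229.3 against 626, 601.4 and 458.5 at 48 h (difference 2.76, SE 0.27, adjusted p = 9e-07). The FAMA-EAR arrays read 473.1, 399.7 and 536.4 for AT1G30870 and 514.8, 581.3 and 666 for AT4G26010, overlapping the FAMA 48 h arrays in both, although 2 of the 3 FAMA arrays of AT1G30870 lay above every FAMA-EAR array. FAMA-EAR minus control was 0.69 (adjusted p = 0.13, not called) and 1.05 (adjusted p = 0.0028). FAMA minus FAMA-EAR was not called for either, at 0.38 (adjusted p = 0.29) and -0.07 (adjusted p = 0.88). AT1G33811, a GDSL-type lipase, fell from 2135, 1943 and 1999.5 to 1303, 1799.9 and 1284 at 4 h and rose from 1619, 1898 and 1816 to 6880.3, 7218 and 7579.6 at 48 h (difference 2.63, SE 0.15, adjusted p = 3.4e-10), and there the FAMA-EAR arrays stayed at 1729, 1676 and 1684.

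**Figure D3:**
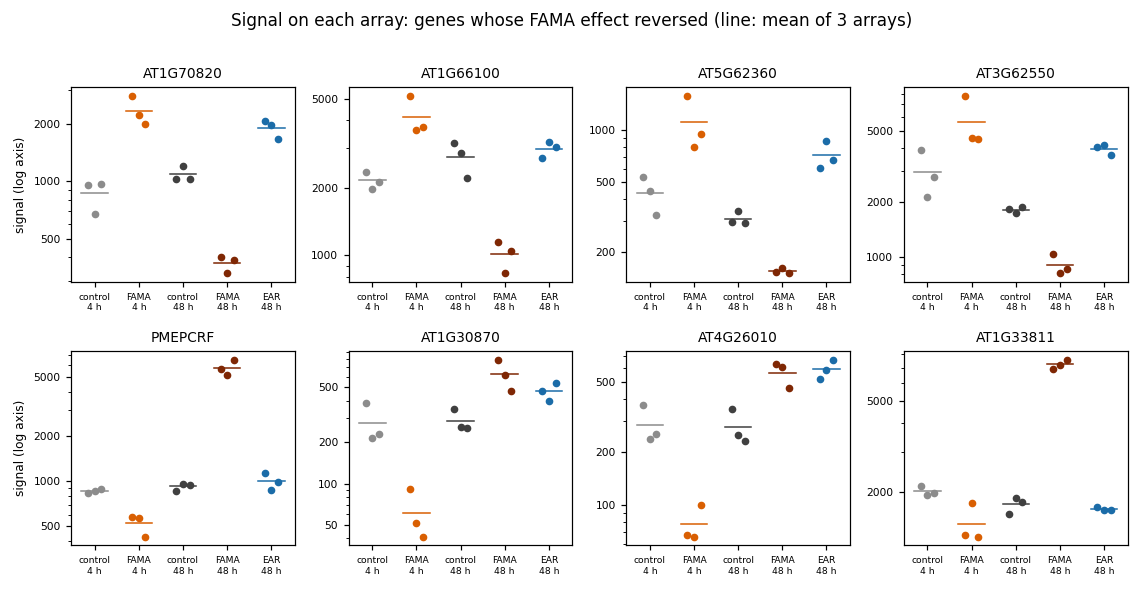
Signal on each array (log axis) for 4 genes that rose at 4 h and fell at 48 h (upper row) and 4 that fell and then rose (lower row), by group, with lines at the mean of 3 arrays. In every panel the FAMA points lie wholly on one side of the control points at 4 h and wholly on the other side at 48 h, and in the panels of AT1G30870 and AT4G26010 the FAMA-EAR points overlap the FAMA 48 h points.

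The 4 named early rises that were no longer called at 48 h were AT4G01130, COR15B, AT3G13980 and AT1G56300. AT1G56300, a DnaJ-type co-chaperone with the smallest difference of the 4, read 428.4, 380.7 and 385.1 on the control arrays against 970.9, 664.9 and 862 on the FAMA arrays at 4 h, and 420.1, 286.8 and 416 against 358.6, 292.2 and 288.6 at 48 h. The groups were separate at 4 h and overlapped at 48 h, and the effect went from 0.92 to -0.21 (difference -1.10, SE 0.22, adjusted p = 0.00056). AT3G13980 went from 0.84 to -0.33 (difference -1.15, SE 0.24, adjusted p = 0.00074), and AT4G01130, a GDSL-type esterase, from 1.22 to -0.42 (difference -1.62, SE 0.35, adjusted p = 0.0016). For AT4G01130 the FAMA 4 h arrays read 205.4, 179.5 and 437.4, and the difference was -1.36 without the third. COR15B, a chloroplast protein of cold acclimation, read 183.6, 217.8 and 212.1 against 993.3, 324.9 and 450.3 at 4 h and 131.4, 126 and 122.3 against 91, 73.6 and 180.7 at 48 h (difference -1.35, SE 0.42, adjusted p = 0.019). Its early rise was carried most by the first FAMA 4 h array, and its call was lost without the first or the second FAMA 48 h array (adjusted p = 0.052 and 0.063).

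Of the 6 named early falls that were no longer called at 48 h, 5 had controls that themselves fell between the times, namely AT1G51850, AT2G04050, XTH18, CYP71B23 and AT4G30800. AT1G51850, a leucine-rich repeat receptor kinase, read 390.8, 530.5 and 494.5 on the control arrays and 142.2, 158.2 and 229.9 on the FAMA arrays at 4 h. At 48 h the control arrays had reached 177.4, 165.3 and 152 and the FAMA arrays read 227.3, 227.7 and 182.5. The FAMA arrays were thus near the same level at both times (change 0.26, adjusted p = 0.33), and the controls fell by 1.40 (adjusted p = 1.8e-05), giving a difference of 1.80 (adjusted p = 7.2e-05). AT2G04050, a MATE-type efflux carrier, did so with 157.5, 301.7 and 189.9 on the control 4 h arrays and 46.4, 7.3 and 56.9 on the control 48 h arrays (difference 2.52, SE 0.61, adjusted p = 0.01), and XTH18 with 539.2, 528.8 and 666.3 and 340.9, 178.7 and 287.4 (difference 1.81, SE 0.40, adjusted p = 0.0071). The controls fell by 0.63 for CYP71B23, a cytochrome P450 (adjusted p = 0.0076), and by 0.35 for AT4G30800, a ribosomal protein (adjusted p = 0.026). In AT1G65500 the change was called in the FAMA arrays instead, at 1.09 (adjusted p = 0.012).

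This split was counted for all called differences by asking in which arm the level changed between 4 h and 48 h. Over all probe sets the change over time was called for 4291 (18.9%) in the FAMA arrays, 2053 up (9.03%) and 2238 down (9.84%). In the control arrays it was called for 1633 (7.18%), 767 up (3.37%) and 866 down (3.81%). Of the 1500 higher differences, the change was called in the FAMA arrays alone for 1021, in the control arrays alone for 206, in both for 141 and in neither for 132. Of the 1603 lower differences the same counts were 907, 249, 225 and 222. Where the control arrays alone are counted, a shift was called between the 2 ages of uninduced seedlings and not between the 2 FAMA groups, and the difference between these shifts is what the contrast tests.

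Among those with a lower difference, AT1G56710, a polygalacturonase-like pectin lyase-fold protein, read 53.1, 54.5 and 39.9 on the control 4 h arrays and 239.7, 174.8 and 252.8 on the control 48 h arrays. The FAMA arrays read 89.3, 62.4 and 146.3 at 4 h and 104.3, 102.4 and 79 at 48 h, with a change over time of 0.00 (difference -1.66, SE 0.35, adjusted p = 0.0013). On the FAMA-EAR 48 h arrays it read 109.1, 108.3 and 87.1. The peroxidase AT5G58390 rose in the controls by 1.07 and changed by -0.15 in the FAMA arrays (difference -1.08, SE 0.28, adjusted p = 0.0054). AT3G17680 (difference -1.09, SE 0.18, adjusted p = 6.7e-05) and AT4G01390 (difference -1.22, SE 0.19, adjusted p = 4.7e-05) rose by 1.17 and 1.13 in the controls alone.

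STOMAGEN, a secreted peptide from leaf mesophyll that promotes stomatal formation in the epidermis, was of the same kind. It rose in the controls from 499.8, 428.4 and 492 to 891.8, 764.4 and 869.4 and read 462.4, 528.5 and 562.7 and then 440.7, 488.8 and 462.5 in the FAMA arrays (difference -0.82, SE 0.15, adjusted p = 0.00016). On the FAMA-EAR arrays, with 757.9, 891.2 and 789.9, it stood near the control level of 48 h.

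AT4G01870, a TolB-related protein, was an example in the other direction whose effect was called only at 48 h. The controls fell from 2522, 2487 and 2086 to 784.1, 642.9 and 1093, while the FAMA arrays read 1621, 1605 and 2500.5 and then 1707, 1992 and 2220 (difference 1.71, SE 0.30, adjusted p = 0.00099). UGT76B1, a glycosyltransferase, fell in the controls by 1.11 and changed by 0.06 in the FAMA arrays (difference 1.32, SE 0.21, adjusted p = 0.00042).

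**Figure D4:**
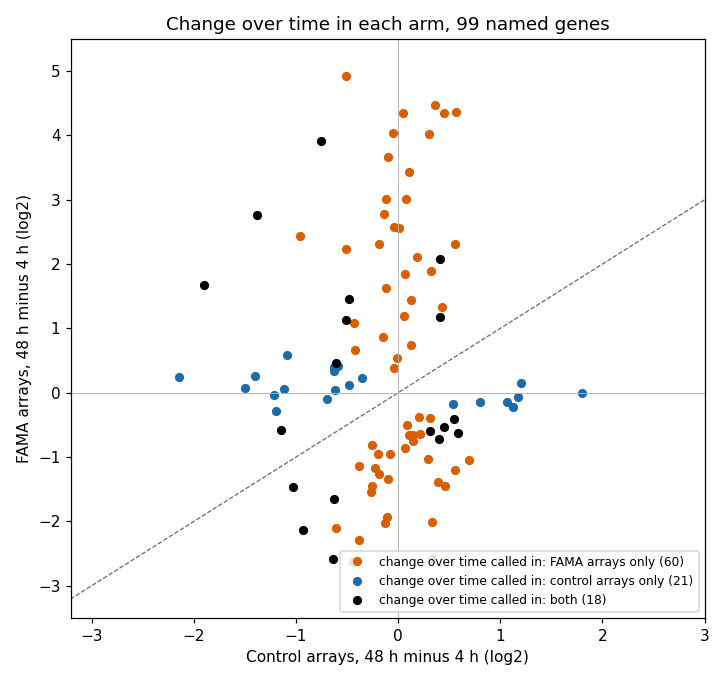
Change from 4 h to 48 h in the control arrays (x axis) and in the FAMA arrays (y axis) for the 99 named genes, in log2 units without subtraction of the median; colours show in which arm the change was called and the dashed line marks equal change. The 60 genes called in the FAMA arrays alone spread along the vertical axis, and the 21 called in the control arrays alone lie along the horizontal axis.

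Gene lists were read against the background of the 13355 genes with a name, of which 11.3% were called, 5.65% higher and 5.67% lower, with a median difference of -0.02. These shares concern the difference. The effect at 4 h was called higher for 108 of the 13355 and lower for 189, and the effect at 48 h for 1263 and 1207. List members are those with a named probe set, 1 per gene, and the counts below are descriptions. In whole seedlings, fewer cells of a type and less RNA per cell cannot be told apart.

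Of 11 measured nuclear photosynthesis genes, 9 were called, all lower at 48 h, with a median difference of -0.54. Their median effect was -0.01 at 4 h and -0.65 at 48 h. PSAN, a luminal subunit of photosystem I, led them. It read 12714, 13259 and 12137 on the control 4 h arrays and 15833, 16369 and 12393 on the FAMA 4 h arrays, of which the third was lowest. The 48 h signals were 15437, 15468 and 15722 on the control arrays and 7021, 7663 and 6911 on the FAMA arrays, all below every control array (difference -1.19, SE 0.14, adjusted p = 1.4e-06).

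LHCB4.2 (difference -0.76, SE 0.15, adjusted p = 0.00034) and LHCB4.1 (difference -0.67, SE 0.15, adjusted p = 0.00061) are antenna proteins of photosystem II, and PSBY (difference -0.72, SE 0.18, adjusted p = 0.002) is a small subunit of it. PSAE-1, of photosystem I (difference -0.10, SE 0.17, adjusted p = 0.4), and LHCB4.3, a dim antenna gene (difference -0.52, SE 0.22, adjusted p = 0.056), were not called. With equal array medians 5 of the 11 were called lower, after quantile normalization 8, and without the third FAMA 4 h array 10. Bright probe sets leaned the same way: of 170 other named genes with a mean signal of at least 5000, 41 were called lower and 7 higher (28.2%), with a median of -0.04, or -0.18 without the third FAMA 4 h array. The part of brightness in the photosynthesis result was not tested.

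Of 11 measured genes of chlorophyll and haem synthesis, 6 were called, all lower, with a median of -0.36. CHLM, the methyltransferase of magnesium protoporphyrin, rose in the controls from 7011, 5131 and 7122 to 9150.2, 10126 and 9407 and fell in the FAMA arrays from 7047, 6677 and 6182 to 4427, 4192 and 4253 (difference -1.07, SE 0.15, adjusted p = 6.5e-06). PORB, a light-dependent protochlorophyllide reductase, was higher than control on all FAMA 4 h arrays and lower on all FAMA 48 h arrays, with effects of 0.31 and -0.69 (difference -0.98, SE 0.15, adjusted p = 2.9e-05). CHLI2, a subunit of magnesium chelatase (difference -0.76, SE 0.13, adjusted p = 4e-05), HEME1 (difference -0.56, SE 0.16, adjusted p = 0.0042), HEME2 (difference -0.48, SE 0.11, adjusted p = 0.00044) and HEMB1 (difference -0.36, SE 0.12, adjusted p = 0.0068) were the others. With equal array medians 4 of the 11 were called, after quantile normalization 7, and with equal medians and the third FAMA 4 h array left out 6. Of 69 measured plastid-encoded genes 1 was called higher (petL) and 1 lower (ccsA), 2.9% in all against 11.3% of all named genes, with a median of 0.08. Leaving out 1 array at a time gave 0 to 2 higher and 0 to 3 lower. How well these arrays read plastid transcripts was not tested, so few calls do not show that those transcripts stayed level.

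SWEET proteins carry sugars across membranes, and 4 of 14 measured members were called, all lower, with a median of -0.43. SWEET11, which loads sucrose for export from leaves, read 4157, 5597 and 4275 on the control 48 h arrays and 2659, 2670.1 and 2302 on the FAMA 48 h arrays, with no overlap, against an effect of 0.03 at 4 h (difference -0.85, SE 0.16, adjusted p = 0.00021). SWEET17, a fructose carrier of the vacuole, read 1136, 741.9 and 862.1 and 405.5, 483.7 and 433.9 at 48 h (difference -0.81, SE 0.20, adjusted p = 0.0021). SWEET6 was dim, with a mean of at most 81.2 in any group, and lost its call without the third FAMA 4 h array (adjusted p = 0.051), while SWEET16 passed only narrowly (adjusted p = 0.049). SWEET16 lost its call under 15 of 24 alternatives. The family count was 2 without the second or the third control 4 h array, the first or the second control 48 h array, or the third FAMA 48 h array.

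XTH enzymes cut and rejoin xyloglucan in the wall. Of 10 measured members 5 were called, all higher, with a median of 1.08, and 5 were called higher whichever of the 12 arrays was left out. At 48 h itself the effect was called higher for 3 and lower for 1, EXGT-A3 (-0.31, adjusted p = 0.018), whose difference was not called. XTH32 read 1399, 1531 and 1279 against 1389, 1429 and 958.6 at 4 h and 1386, 1213 and 1274 against 3850.5, 3722 and 4043 at 48 h, a late rise alone (difference 1.88, SE 0.18, adjusted p = 7.8e-07). XTH16 was alike in form, with an effect of -0.15 at 4 h and 1.54 at 48 h (difference 1.71, SE 0.16, adjusted p = 1.1e-06).

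XTH19 fell at 4 h and rose at 48 h, with 410.8, 337.2 and 428.1 against 251.8, 236.7 and 278.4 and then 271.9, 274.7 and 276.2 against 732, 660.8 and 819 (difference 2.07, SE 0.20, adjusted p = 8.4e-07). XTH18 and XTH20 fell at 4 h, with effects of -1.40 and -1.28, and had effects of 0.39 and 0.14 at 48 h that were not called. XTH29, which reads near background, had the opposite sign and was not called (difference -1.72, SE 0.67, adjusted p = 0.075).

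The other wall families held strong members and no common direction. Of 10 measured alpha-expansins, 1 was called higher (EXPA16, above) and 1 lower (EXPA8), with a median of 0.01. EXPA8 fell from 1573, 1360.5 and 1501 to 1004, 1016 and 831.4 in the controls and from 1507, 2341 and 1626 to 508.7, 568.7 and 595.9 in the FAMA arrays (difference -0.88, SE 0.21, adjusted p = 0.0017). Without the third FAMA 4 h array, 3 expansins were called higher and 2 lower. Of 44 measured pectin methylesterases, 2 were called higher and 4 lower (13.6% in all, against 11.3% of all named genes), with a median of -0.18. The lower count was 1 without the third control 4 h array.

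Of 55 measured class III peroxidases, 10 were called higher and 4 lower (25.5% in all), with a median of 0.17. At 4 h 7 of the 55 had a called effect, all lower, and at 48 h 11 had risen and 11 had fallen. Among all 13355 named genes 189 were lower and 108 higher at 4 h, and 1207 lower and 1263 higher at 48 h. Besides the reversing AT1G30870 and AT4G26010, AT4G36430 rose late without an early fall, from 234.9, 173.9 and 205.3 on the control 48 h arrays to 1949, 1656 and 1459 on the FAMA 48 h arrays (difference 3.05, SE 0.30, adjusted p = 9.6e-07). The higher count lay between 6 (without the second control 48 h array) and 12 (without the third FAMA 4 h array).

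Root hair transcripts hung on the third FAMA 4 h array. Of 6 measured members 1 was called with all arrays and 5 without that array, all higher, while the median difference was 1.25 and 1.53. GH9C1, an endoglucanase of root hairs, read 117.6, 93.7 and 90.4 against 35.1, 39.9 and 30.8 at 4 h and 120.9, 117.8 and 111.8 against 259.6, 170.8 and 231.5 at 48 h, so the FAMA arrays were wholly below and then wholly above the controls (difference 2.06, SE 0.31, adjusted p = 0.00018). EXPA7 (difference 1.34, SE 0.48, adjusted p = 0.11) and EXPA18 (difference 1.22, SE 0.44, adjusted p = 0.12), root hair expansins, were called only without the array (adjusted p = 0.017 and 0.0016). PYK10, the abundant beta-glucosidase of root and hypocotyl, went the other way, with 19141, 18675 and 21454 on the control 48 h arrays and 12788, 10990 and 13270 on the FAMA 48 h arrays (difference -0.61, SE 0.14, adjusted p = 0.00059), although its call was lost after quantile normalization (adjusted p = 0.088).

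Of 14 measured genes that plants switch on when iron is short, 5 were called, all higher, and 9 were not, with a median of 0.54 and a range from -1.79 to 3.27. Their median effect was -0.05 at 4 h and 0.32 at 48 h. AT1G47400, an IRONMAN peptide gene that signals iron shortage between organs, read 634, 611.9 and 640.7 against 773.3, 753.8 and 558.1 at 4 h, in overlapping arrays. At 48 h it read 561.6, 667.8 and 671.7 on the control arrays and 5030.2, 3735 and 3781 on the FAMA arrays, well apart (difference 2.69, SE 0.25, adjusted p = 4.6e-07).

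BHLH101, a bHLH factor of the iron response, read 95.1, 83.7 and 120.5 against 506, 512.4 and 532.5 at 48 h (difference 1.92, SE 0.39, adjusted p = 0.0034). On the FAMA-EAR arrays BHLH101 was low, at 3.5, 32.4 and 21.3, and FAMA-EAR minus control was -1.68 (adjusted p = 0.001). AT1G12030 (difference 3.27, SE 0.59, adjusted p = 0.00089), AT5G05250 (difference 1.15, SE 0.23, adjusted p = 0.004) and AT3G56360 (difference 0.81, SE 0.16, adjusted p = 0.0055) were the other called members. PYE, a bHLH regulator of the same response, had effects of 0.25 and 0.67 and was not called (difference 0.44, SE 0.19, adjusted p = 0.34). The list was drawn up with earlier results of these data known, so its direction is not independent evidence.

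Among guard cell genes, 1 of 4 measured members was called, and it was higher, with a median of 0.79. Without the third control 4 h array or the second FAMA 4 h array 2 were called. AT1G22690, known as GC1 and used as a guard cell marker, read 2381, 2327 and 2101 against 2339, 3031 and 2246 at 4 h, in overlapping arrays. The 48 h signals were 2758, 3129 and 3158 on the control arrays and 11730, 9282 and 11394 on the FAMA arrays (difference 1.82, SE 0.15, adjusted p = 1.5e-07). CHX20, a cation exchanger of guard cells (difference 0.85, SE 0.25, adjusted p = 0.071), and AT4G14480, the kinase BLUS1 of blue light opening (difference 0.74, SE 0.27, adjusted p = 0.16), had positive differences that were not called, though the effect at 48 h itself was called for both (adjusted p = 0.0003 and 0.0011).

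Summed over the 3 measured guard cell markers of the 7 listed, signal lay between 10161.5 and 12485 on the FAMA 48 h arrays, against 3070 to 3632 on the control 48 h arrays and 2746 to 3614 on the FAMA 4 h arrays. Most of this guard cell sum was AT1G22690 alone, with a mean of 10802 at FAMA 48 h. The differences of CHX20 and AT4G14480 were not called. The 3 measured root markers of 8 (PYK10, EXPA7 and EXPA18) summed to between 11359 and 13573 at FAMA 48 h and to between 17606.5 and 21726 on the arrays of the other 3 groups of the contrast. That sum is mostly PYK10, with a mean of 12349 at FAMA 48 h, while the differences of EXPA7 and EXPA18 had the opposite sign, at 1.34 and 1.22, and were called without the third FAMA 4 h array alone. The 2 measured mesophyll markers of 8, LHCB4.1 and RCA, summed to between 28877 and 30469.6 at FAMA 48 h and to between 35245 and 48811.5 on those other arrays. No measured marker of these 3 lists was listed at 0. The part of a changed mix of cells in the gene differences was not tested.

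Of the 3 measured stomatal lineage regulators, STOMAGEN alone was called. SPCH, the bHLH factor that starts the lineage, had effects of -0.48 and -0.74 (difference -0.24, SE 0.27, adjusted p = 0.41), and MUTE, which precedes FAMA in it, was dim (difference -0.29, SE 0.60, adjusted p = 0.7). The Aurora kinases of mitosis were the 3 measured members of the G2 and M list, and 2 were called lower, AUR1 (difference -0.57, SE 0.17, adjusted p = 0.0073) and AUR3 (difference -1.02, SE 0.30, adjusted p = 0.01), while AUR2 was not (difference -0.08, SE 0.22, adjusted p = 0.57). AUR1 rose in the controls from 395, 395.9 and 479.2 to 649, 540.5 and 685.7 and read 425, 441.6 and 559.6 and 434.8, 396.4 and 420.2 in the FAMA arrays. Of 14 early auxin response genes 2 were called (14.3%, against 11.3% of all named genes), both lower, with a median of -0.61. WES1, a GH3 enzyme that joins auxin to amino acids, read 692.6, 620.7 and 669.8 on the control 48 h arrays and 354.5, 370.6 and 369 on the FAMA 48 h arrays (difference -0.94, SE 0.15, adjusted p = 4.8e-05). IAA29, an auxin repressor, was called with all arrays (difference -1.07, SE 0.33, adjusted p = 0.017) and not without the second control 4 h array or the first FAMA 48 h array (adjusted p at most 0.054).

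Of 11 ATG genes of autophagy 3 were called, all higher, with a median of 0.46. All 3 encode ATG8 proteins, which coat the growing autophagosome. ATG8B fell in the controls from 343.3, 420.9 and 401 to 248.2, 245.5 and 237.8 and read 294.9, 384.3 and 368.6 and 440.4, 444.8 and 513.3 in the FAMA arrays (difference 1.17, SE 0.21, adjusted p = 0.0015), while the other called members were ATG8H (difference 0.80, SE 0.19, adjusted p = 0.02) and APG8H (difference 0.57, SE 0.12, adjusted p = 0.022). The count fell to 1 without the first control 4 h array. Among 117 cytosolic ribosomal proteins 8 were called higher and 1 lower (7.7% in all, below the background of 11.3%), with a median of 0.15. At 4 h 11 of them had a called effect, all lower, and at 48 h 30 had fallen and 2 had risen. Among all 13355 named genes 189 were lower and 108 higher at 4 h, and 1207 lower and 1263 higher at 48 h. Leaving out the third FAMA 4 h array gave 5 higher.

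Of the 3 gibberellin receptors, GID1B (difference 1.22, SE 0.20, adjusted p = 0.00077) and GID1A (difference 0.75, SE 0.16, adjusted p = 0.012) were called higher and GID1C was not called (difference -0.28, SE 0.30, adjusted p = 0.42). WRKY6, a factor of senescence and phosphate responses, read 214.6, 186.2 and 262.7 on the control 48 h arrays and 595.2, 707 and 675.2 on the FAMA 48 h arrays, (difference 1.78, SE 0.21, adjusted p = 1.7e-05). It was 1 of 2 called among 6 WRKY genes, both higher, and the count was 1 under 7 of the 12 choices of an array to leave out. Of 11 tau glutathione transferases 3 were called higher and 2 lower, and the higher count was 1 without the second control 48 h array or the first FAMA 48 h array. GSTU20 (difference -0.78, SE 0.13, adjusted p = 4.3e-05) and GSTU18 (difference -0.81, SE 0.16, adjusted p = 0.00024) were the lower members and GSTU27 (difference 0.91, SE 0.17, adjusted p = 0.003), GSTU22 (difference 0.70, SE 0.15, adjusted p = 0.018) and GSTU25 (difference 0.65, SE 0.16, adjusted p = 0.043) the higher ones. Of 15 tetraspanins 1 was called higher (TET4) and 2 lower (TET10 and TET11), and the lower count was 0 without the first control 4 h array, the first or the second control 48 h array, or the second or the third FAMA 48 h array. TET10 lost its call under 10 of 24 alternatives.

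**Figure D5:**
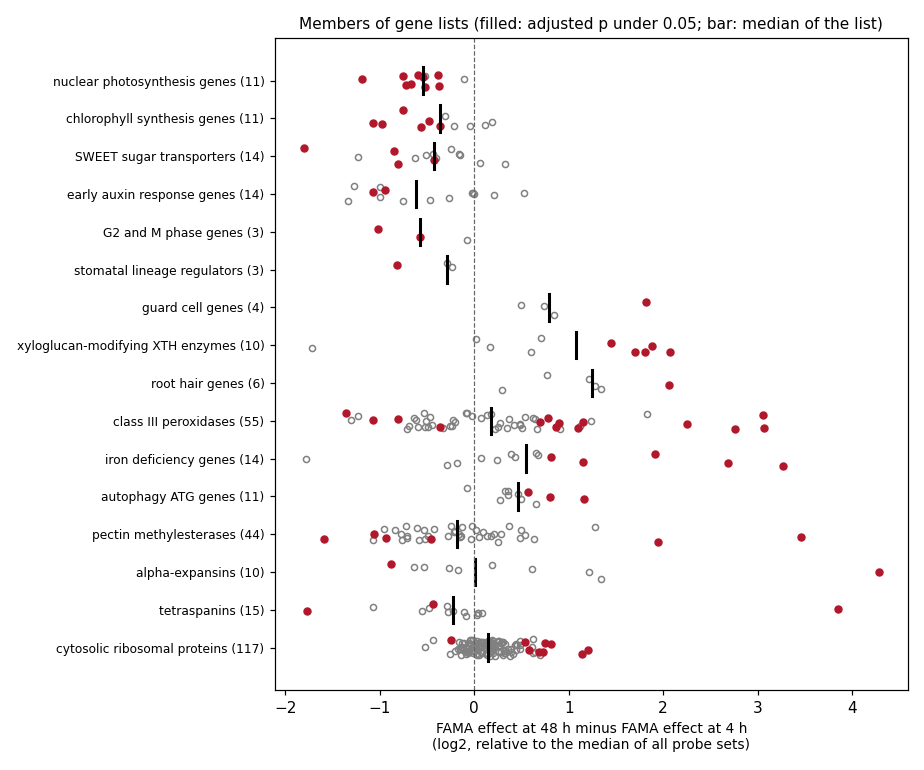
Difference of the FAMA effect (log2, relative to the median of all probe sets) for each measured member of 16 gene lists, with the number of members in brackets; filled points were called, open points were not, and black bars are list medians. Called photosynthesis, chlorophyll and SWEET points lie left of 0, called XTH, iron and ATG points lie right of it, and called peroxidases lie on both sides.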

How the data were processed

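The authors deposited MAS5 signal intensity for 22810 probe sets on each of 15 ATH1 arrays, per the submitters' processing notes, which give no version and no scaling target. MAS5 reads each array alone, so dim signals carry a large relative error. From these values log2(signal + 20) was computed and fitted in limma 3.58.1 (R 4.3.3), with 1 mean for each of 5 groups, 10 residual degrees of freedom and moderated variances with a trend. The tests were two-sided, with Benjamini-Hochberg adjustment over 22746 probe sets. For 1 gene with 3 arrays in each of 2 groups, the smallest p that an exact test allows is 0.1. Arrays give no counts, so their number limits the precision. On data simulated with independent normal noise, 100 of 22746 probe sets were given a difference of size 1 (log2) and 100 one of size 2. Of these 35 and 72 were recovered, with 3 false calls. The data held 3103 calls, far more than the probe sets changed there, and no array was simulated to stand apart. The simulated rates therefore do not carry over to the data. Replicate numbers were not used to pair samples. Of 18 same-number correlations 0 passed 0.1, which cannot show whether samples of 1 number were grown or processed together.

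A platform table named 13513 probe sets by 1 gene and 503 by several, and 8730 were unnamed. The 99 named genes were FAMA, the 12 highest and 12 lowest differences, the 4 largest of each early or reversing pattern and of those in the controls alone, and up to 4 per list. They had to pass with and without the third FAMA 4 h array, keep their sign under 2 other scalings and reach a mean of 200 in 1 group. Members and lists were chosen with earlier results of these data known, and lists were trimmed after the annotation was seen. Sequences were not used here. Figures were drawn with matplotlib under Python.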

Additional observations from a re-analysis of the deposited data

Results flagged for a closer look

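The effect of FAMA differed between the times, by the test of the difference itself, for 3103 probe sets and for all 99 genes named by the rule, which was built on that test, so these are the values that chose them. Each value below is the difference of the effect, 48 h minus 4 h, in log2 units relative to the median of all probe sets. Groups of 3 arrays are too small for the test of single outlying samples, and no array lay outside the 5 groups.

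Genes whose effect was higher and called at 48 h alone had differences of 5.57 for AT4G36700, 4.80 for AT2G34810, 4.44 for AT4G29570, 4.25 for AT2G04460, 4.23 for AT2G15830, 4.03 for AT3G58000, 3.89 for AT5G66440, 3.85 for TET4, 3.72 for AT3G02480, 3.53 for AT2G47780, 3.27 for AT1G12030, 3.05 for AT4G36430 and 2.89 for BGLU28. Further differences of this kind were 2.69 for AT1G47400, 1.92 for BHLH101, 1.89 for WRKY42, 1.88 for XTH32, 1.82 for AT1G22690, 1.78 for WRKY6, 1.71 for AT4G01870, 1.71 for XTH16, 1.45 for TBL38, 1.31 for AT5G51440, 1.28 for TBL41, 1.22 for GID1B and 1.20 for AT5G39850. Further differences of this kind were 1.17 for ATG8B, 1.15 for AT5G05250, 1.04 for UGT73B4, 1.04 for SCPL49, 0.91 for GSTU27, 0.80 for ATG8H, 0.75 for GID1A, 0.75 for AT3G02190, 0.73 for UGT87A2, 0.70 for GSTU22 and 0.57 for APG8H. Genes whose effect was lower and called at 48 h alone had differences of -1.77 for AT4G28940, -1.76 for AT1G64590, -1.66 for AT1G56710, -1.59 for AT1G78995, -1.19 for PSAN, -1.08 for AT5G58390, -1.07 for IAA29, -1.07 for CHLM, -1.05 for AT2G05540, -0.94 for WES1, -0.90 for scpl35, -0.88 for EXPA8 and -0.85 for SWEET11. Further differences of this kind were -0.82 for STOMAGEN, -0.81 for GSTU18, -0.81 for SWEET17, -0.78 for GSTU20, -0.76 for LHCB4.2, -0.76 for CHLI2, -0.74 for UGT76E11, -0.72 for PSBY, -0.67 for LHCB4.1, -0.62 for TBL25, -0.61 for CYP71B26, -0.61 for PYK10 and -0.57 for AUR1. Further differences of this kind were -0.56 for HEME1, -0.45 for AT3G49220, -0.44 for TET10, -0.42 for SWEET16 and -0.30 for COR47. Where the effect fell and then rose, the differences were 3.46 for PMEPCRF, 3.07 for AT1G30870, 2.76 for AT4G26010, 2.63 for AT1G33811, 2.07 for XTH19, 2.06 for GH9C1 and 1.32 for UGT76B1. Where it rose and then fell, they were -2.78 for AT1G70820, -2.21 for AT1G66100, -2.05 for AT5G62360, -1.80 for AT3G62550, -1.77 for AT4G32340, -1.69 for THI2.2, -1.64 for CCB3, -1.22 for AT4G01390, -1.09 for AT3G17680 and -0.98 for PORB. Early rises no longer called at 48 h had differences of -1.62 for AT4G01130, -1.35 for COR15B, -1.15 for AT3G13980 and -1.10 for AT1G56300. Early falls no longer called at 48 h had differences of 2.52 for AT2G04050, 1.81 for XTH18, 1.80 for AT1G51850, 1.66 for AT1G65500, 1.11 for CYP71B23 and 0.73 for AT4G30800. Rises called at both times and larger at 48 h had differences of 4.28 for EXPA16, 3.93 for AT3G57600 and 0.69 for FAMA. With neither effect called, the difference was 1.14 for AT2G32220.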

How the results depend on the processing

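The 99 named genes were chosen to pass without the third FAMA 4 h array and to keep their sign with equal array medians and after quantile normalization, so their direction there is fixed by the choice. Under the other alternatives that tested them 0 reversed. In all, 80 stayed called under each alternative that tested them, while 19 lost the call under at least 1. The losses per alternative were 10 without the variance trend and 10 without moderation, 7 with equal array medians, 4 with a floor of 50, 3 after quantile normalization, and up to 7 when 1 array was left out. The 3103 called probe sets became 3065 with an offset of 1, 3094 with an offset of 100, 2816 with a floor of 50, 3020 after quantile normalization, 2853 in a fit of the 12 arrays alone, 3895 with array weights, 2541 without moderation and 2294 without the variance trend. Equal array medians lowered the probe sets with a lower effect at 48 h from 1603 to 964. With the third FAMA 4 h array left out as well, an alternative chosen after seeing the data, it was 1885; the cause was not tested. The fit with the replicate number as a block called 3091, with 1508 higher and 1583 lower. Whether the numbers pair the samples is not known, and 3 of 12 arrays correlated best with an array of their own number. Leaving out each array in turn gave 2448 to 3467 called probe sets, with 1167 to 1663 higher and 1281 to 1804 lower. A mean signal of at least 100 left 14364 probe sets, of which 3378 were called. Low signal limits the calls: 5726 named genes had a mean signal below 100 and 1.66% of them were called, against 14.3% between 100 and 1000.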

Other observations

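Of 48 measured UGT glycosyltransferases, enzymes that attach sugars to small molecules, 3 were called higher and 2 lower, 10.4% in all against 11.3% of all named genes, and the lower count lay between 1 and 4 (without the second FAMA 4 h array) when 1 array was left out. UGT73B4 fell in the controls from 750, 613.2 and 678 to 264.1, 289.1 and 304.1, while the FAMA arrays read 598.6, 609.7 and 455.5 and 462.8, 396.1 and 483.4 (difference 1.04, SE 0.19, adjusted p = 0.0023), and the FAMA-EAR arrays read 103.3, 115.4 and 102.4, below all the others. UGT87A2 likewise fell in the controls, by 0.70, with a change of -0.11 in the FAMA arrays (difference 0.73, SE 0.16, adjusted p = 0.013). UGT76E11 fell in the FAMA arrays, by 0.96, with a change of -0.08 in the controls (difference -0.74, SE 0.23, adjusted p = 0.013). Of 21 BGLU beta-glucosidases 1 was called higher, BGLU28, which read 89.6, 110.7 and 103.2 on the control 48 h arrays and 370.5, 437.6 and 521.5 on the FAMA 48 h arrays (difference 2.89, SE 0.40, adjusted p = 6.2e-05), and 1 lower, PYK10. Together they are 9.5% of the measured BGLU members, against 11.3% of all named genes.

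TBL proteins add acetyl groups to wall polymers, and 2 of 23 measured members were called higher and 1 lower, 13.0% in all against 11.3% of all named genes. When 1 array was left out, 1 to 3 were called higher and 1 to 2 lower. TBL38 read 410.6, 407.5 and 275.4 against 1116, 1001 and 1050.1 at 48 h, with an effect of 0.10 at 4 h (difference 1.45, SE 0.19, adjusted p = 7.5e-05), and TBL25 read 2230.3, 2610.4 and 2408 against 1179.7, 1352 and 1301 (difference -0.62, SE 0.14, adjusted p = 0.00062). Of 29 serine carboxypeptidase-like genes 6.9% were called, below the 11.3% of all named genes. SCPL49 was called higher (difference 1.04, SE 0.20, adjusted p = 0.0034) and scpl35 lower, the latter after a rise from 474.8, 732.1 and 670 to 1367, 1643 and 1329 in the controls that was not called in the FAMA arrays (difference -0.90, SE 0.22, adjusted p = 0.0024). Of 4 measured cold-regulated genes and dehydrins 2 were called, both lower, and 1 was lower without any 1 of the FAMA 48 h arrays. COR15A was not: it rose at both times with effects of 1.10 and 1.07 (difference -0.01, SE 0.44, adjusted p = 0.87). COR47 fell over time in both arms, by 1.03 in the controls and 1.47 in the FAMA arrays (difference -0.30, SE 0.12, adjusted p = 0.014).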
